A study of Homo sapiens with 6 samples.

Results

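DUSP4 and ETV5 rose in HaCaT keratinocytes after Agrin knockdown, while 7 related genes did not pass the test and SPRY4 was too low to enter it. They belong to a set of 10 genes tied to the kinase ERK, whose products either restrain its pathway or carry its signal into the nucleus. The set holds the phosphatase genes DUSP1, DUSP4, DUSP5 and DUSP6, the inhibitor genes SPRY2, SPRY4, SPRED1 and SPRED2, and the transcription factor genes ETV4 and ETV5. The genes were taken from a list of names, which was drawn up with earlier results of these data known, and all 10 were among the 14168 genes listed, of which 9 were among the 13050 genes tested. HaCaT cells are human keratinocytes that grow as an immortalised, established line. The cells were transfected with an siRNA against Agrin (siAgrin, 3 libraries) or with a control siRNA (siControl, 3 libraries), so that both groups carry the effects of transfection. Which Agrin siRNA was used for sequencing and the time of harvest are not given in the sources used here. Polyadenylated RNA was sequenced as stranded libraries, and a level is given in CPM, the reads of a gene scaled to the size of its library. In RNA from whole cultures, fewer cells of a type and less RNA per cell cannot be told apart.

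ERK is the last kinase of the cascade that runs from growth factor receptors through RAS and RAF to MEK, and in keratinocytes this cascade is known for its part in proliferation and migration. The dual-specificity phosphatases remove phosphate from MAP kinases, the Sprouty and SPRED proteins hold back the signal between the receptor and RAF, and several genes of these families are themselves induced by ERK, which closes a negative feedback loop. ETV4 and ETV5 belong to the PEA3 group of ETS transcription factors, whose genes respond to the same pathway and are kept silent by the repressor Capicua (CIC) when ERK is quiet.

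The AGRN transcript averaged 401 ± 12.3 CPM in siAgrin libraries and 821 ± 20.9 CPM in siControl libraries (SD, n = 3 each), or 48.8% of the control level, and fell by 1.03 on the log2 scale (limma, standard error 0.047, adjusted p = 2.6e-05). The libraries held 40958553 to 43312708 reads in listed genes, and the values of 1 read lay between 0.0215 and 0.0221 CPM. All 6 keratinocyte markers were listed, with a summed level of 9115 to 10330 CPM in siAgrin libraries and 7979 to 8206 CPM in siControl libraries, and KRT14 and DSG3 rose. The 6 fibroblast markers summed to 9.45 to 45.7 CPM in siAgrin libraries and 12.2 to 19.5 CPM in siControl libraries. PDGFRB was the only one of them at 0 in any library, in siControl 1 and 3. Of the 5 endothelial and the 5 leukocyte markers, 1 each was listed, at no more than 0.0437 and 0.301 CPM, and 2 of 5 melanocyte markers were listed, at a summed 7.53 to 7.99 CPM in siAgrin libraries and 7.23 to 7.45 CPM in siControl libraries. The labels do not say that the libraries of a group came from separate cultures, so the p-values measure the spread between these libraries, which may be technical.

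Agrin knockdown raised 2 of the 9 tested genes and lowered 0 of them (limma on log2(CPM + 0.5), adjusted p below 0.01). This share of 22.2% was close to the background, since 18.2% of all tested genes were called, 9.14% higher and 9.07% lower in siAgrin libraries. At an unadjusted p below 0.05 the counts were also 2 higher and 0 lower, but the share of all tested genes at that threshold was not counted. Both edgeR and DESeq2 called 2 of the genes higher and 0 lower. Over all tested genes they called 2360 and 3361 in either direction. The median log2 fold change was 0.15 over the 9 genes, with 7 positive and 2 negative, against -0.00 over all tested genes. In 2 of the 9 every siAgrin library lay above every siControl library, a share of 22.2%, as was so for 25.0% of all tested genes, and the same held for SPRY4. None of the 10 changed by more than 2-fold and passed the test, against 202 of all tested genes. The count depended on single libraries, as it was 1 without siAgrin 3 and 1 without siControl 1 (ETV5 alone in both) and 0 without siControl 2. The number called among all tested genes fell in the same fits, from 2377 to 571 without siAgrin 3, 1553 without siControl 1 and 667 without siControl 2. The loss of calls was thus not particular to these genes.

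**Figure D1:**
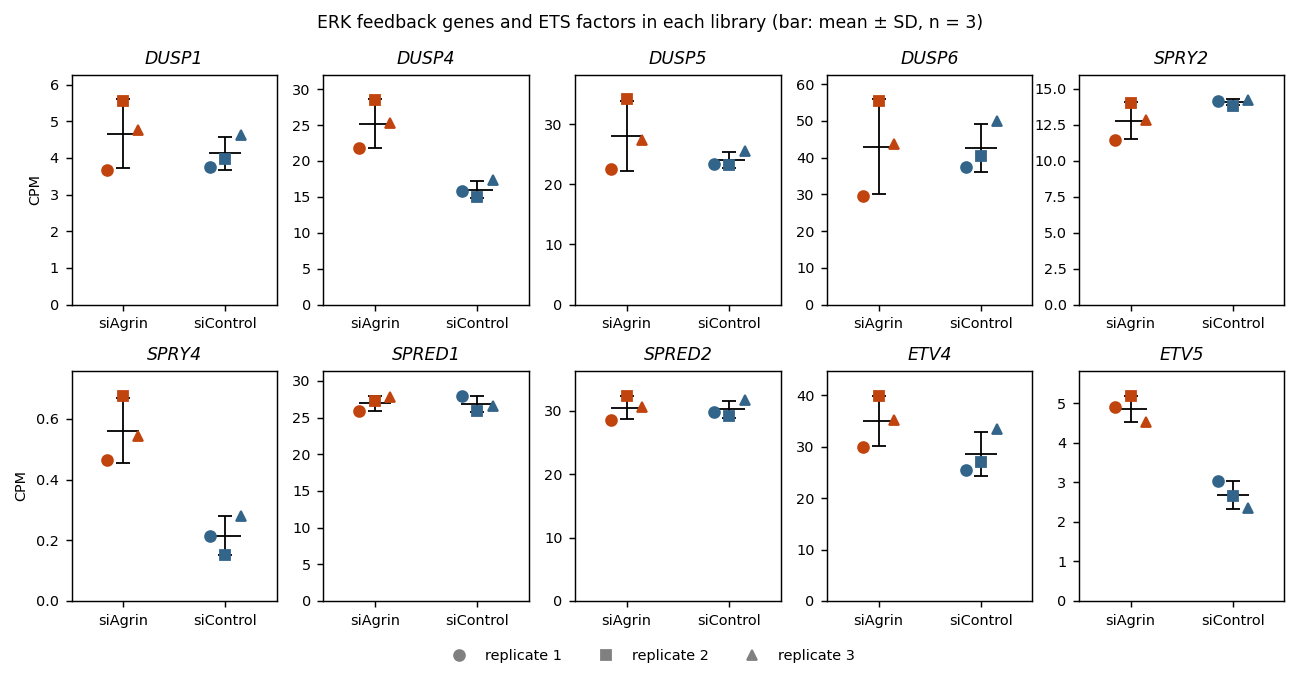
CPM of each of the 10 genes (linear vertical axis from 0, own scale per gene) in the 3 siAgrin libraries at left and the 3 siControl libraries at right, with circle, square and triangle for replicates 1, 2 and 3 and a bar for mean ± SD (n = 3). The siAgrin libraries lie above all siControl libraries for DUSP4, SPRY4 and ETV5, whereas for DUSP6 the siAgrin libraries spread from 29.6 to 55.5 CPM and enclose the siControl libraries.

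Among the phosphatases, DUSP4 was the gene that moved. DUSP4 encodes a nuclear phosphatase of ERK and JNK and lies on chr8:29333064-29350684 (GRCh38, minus strand, ENSG00000120875.9). Its level was 21.8, 28.6 and 25.3 CPM in siAgrin libraries, against 15.8, 14.9 and 17.4 CPM in siControl libraries. All siAgrin libraries lay above all siControl libraries, with siAgrin 2 the highest. The means were 25.2 ± 3.39 CPM in siAgrin libraries and 16.0 ± 1.23 CPM in siControl libraries (SD, n = 3 each), a rise to 157% of the control level. The log2 fold change was 0.63 (95% interval 0.40 to 0.87, standard error 0.101, limma adjusted p = 0.0028), and an exact permutation test of the CPM gave p = 0.1 (two-sided), below which 3 libraries against 3 cannot go. The limma adjusted p missed 0.01 without siAgrin 3 (0.0191), without siControl 1 (0.0116) and without siControl 2 (0.0174), while the fold change stayed between 0.54 and 0.73 as single libraries were left out.

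DUSP6, the cytoplasmic phosphatase that acts on ERK rather than JNK or p38, showed the widest spread of the phosphatases. DUSP6 (chr12:89347235-89352501, minus strand, ENSG00000139318.8) measured 29.6, 55.5 and 43.8 CPM in siAgrin libraries, against 37.5, 40.4 and 50.02 CPM in siControl libraries. The siAgrin libraries included both the lowest and the highest of the 6 values. The means were 43.0 ± 13.0 CPM in siAgrin libraries and 42.6 ± 6.56 CPM in siControl libraries, with a log2 fold change of -0.02 and a 95% interval of -0.50 to 0.46 (limma adjusted p = 0.94), which leaves room for a change of up to that size in either direction. Without siAgrin 1 the log2 fold change was 0.22 and without siAgrin 2 it was -0.23.

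DUSP5 and DUSP1 lay between these. DUSP5, a nuclear phosphatase selective for ERK (chr10:110497907-110511533, plus strand, ENSG00000138166.6), measured 22.6, 34.2 and 27.3 CPM in siAgrin libraries, against 23.4, 23.2 and 25.5 CPM in siControl libraries. The groups overlapped through siAgrin 1, and the log2 fold change was 0.20 (95% interval -0.11 to 0.50, limma adjusted p = 0.27), with 0.34 without siAgrin 1 (limma adjusted p = 0.0219) and 0.05 without siAgrin 2. DUSP1, a nuclear phosphatase of p38, JNK and ERK that is induced by growth factors and stress (chr5:172768096-172771195, minus strand, ENSG00000120129.6), measured 3.67, 5.55 and 4.77 CPM in siAgrin libraries, against 3.76, 3.99 and 4.64 CPM in siControl libraries. Here too siAgrin 1 lay below all siControl libraries and siAgrin 2 above them, with a log2 fold change of 0.15 (95% interval -0.18 to 0.47, limma adjusted p = 0.44), which was 0.29 without siAgrin 1 and 0.02 without siAgrin 2.

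Of the phosphatase genes here, DUSP6 and DUSP1 had a promoter entry, and both are shown. Their levels moved together over the libraries (Pearson r = 0.91) without a difference between the groups, but this is not particular to the pair. SPRED2 followed DUSP6 more closely (0.95), and DUSP1 ranked 253 among the tested genes. The SPRED2 promoter, not shown, held 1 GC box and 0 CIC octamers. The sequences run 5′ to 3′ over 250 bases before and 20 after the start site (RefSeq, GRCh38.p14), at chr12:89352482-89352751 for DUSP6 and chr5:172771176-172771445 for DUSP1, both on the minus strand, and capitals mark every motif match. Both strands of the window of 250 bases before to 50 after the start were searched for an ETS core (CCGGAAG), the cAMP response element (CRE, TGACGTCA), AP-1 (TGANTCA), a GC box (GGGCGG) and the octamers bound by CIC (TGAATGAA, TCAATGAA, TGAATGGA and TCAATGGA).
DUSP6: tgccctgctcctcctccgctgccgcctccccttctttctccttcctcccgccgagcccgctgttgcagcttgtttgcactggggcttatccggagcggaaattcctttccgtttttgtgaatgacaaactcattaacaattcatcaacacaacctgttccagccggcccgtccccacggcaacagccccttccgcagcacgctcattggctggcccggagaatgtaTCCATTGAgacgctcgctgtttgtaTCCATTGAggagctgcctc
DUSP1: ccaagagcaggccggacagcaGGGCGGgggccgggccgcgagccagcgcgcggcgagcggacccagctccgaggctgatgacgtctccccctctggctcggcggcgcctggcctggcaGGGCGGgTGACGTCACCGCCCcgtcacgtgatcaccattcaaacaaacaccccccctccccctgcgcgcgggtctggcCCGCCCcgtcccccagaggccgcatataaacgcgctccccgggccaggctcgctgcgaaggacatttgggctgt
The DUSP6 promoter held 2 CIC octamers, with first bases at -24 and at 2 relative to the start site and both on the reverse strand, and no match to the other motifs. The DUSP1 promoter held 1 CRE at -125 and 4 GC boxes, of which those at -132 and -117 flank the CRE without overlapping it. A CIC octamer was present in 3.86% of the 27305 promoters of that length, a CRE in 1.98%, a GC box in 44.6%, AP-1 in 7.76% and the ETS core in 10.7%. The CIC octamers were added to the search after the DUSP6 sequence had been seen. Among the 10 genes 6 had an entry in the promoter table, and DUSP4, DUSP5, ETV4 and ETV5 did not.

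Among the Sprouty and SPRED genes, SPRY4 was higher in all siAgrin libraries at a very low level, and the other 3 showed small differences. SPRY4, an inhibitor of the step from receptor to RAS (chr5:142310427-142326455, minus strand, ENSG00000187678.10), measured 0.465, 0.677 and 0.542 CPM in siAgrin libraries, against 0.215, 0.152 and 0.279 CPM in siControl libraries. These levels rest on 21, 31 and 25 reads in siAgrin libraries and on 10, 7 and 13 reads in siControl libraries, and the groups did not overlap. The summed reads were 77 in siAgrin libraries and 30 in siControl libraries, and scaled to library size their ratio was 2.61 (exact 95% interval 1.69 to 4.12, for counting error alone). SPRY4 reached 0.5 CPM in 2 libraries and so fell short of the 3 needed to be tested. With no filter, over 14168 genes, limma gave 0.57 on the log2 scale (adjusted p = 0.00971, standard error 0.096), and edgeR without a filter gave 1.37 (adjusted p = 0.0102 over 14035 genes). The call on SPRY4 thus lay at the threshold and changed with the tool, and the exact permutation p was 0.1.

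SPRY2, the Sprouty gene with the higher level in these cells (chr13:80335976-80341126, minus strand, ENSG00000136158.12), measured 11.4, 14.0 and 12.8 CPM in siAgrin libraries, against 14.2, 13.8 and 14.2 CPM in siControl libraries. Only siAgrin 2 reached the siControl range, and the log2 fold change was -0.14 (95% interval -0.32 to 0.04, limma adjusted p = 0.2). Without siAgrin 1 it was -0.07 and without siAgrin 2 it was -0.21. SPRED1, which recruits neurofibromin to the membrane to switch off RAS (chr15:38252836-38357249, plus strand, ENSG00000166068.13), measured 25.8, 27.3 and 27.8 CPM in siAgrin libraries, against 28.0, 25.8 and 26.6 CPM in siControl libraries. SPRED2, its paralog (chr2:65310851-65432637, minus strand, ENSG00000198369.10), measured 28.6, 32.3 and 30.7 CPM in siAgrin libraries, against 29.8, 29.2 and 31.7 CPM in siControl libraries. The groups overlapped for both SPRED genes, which had the narrowest intervals of the set. The log2 fold change was 0.01 for SPRED1 (95% interval -0.12 to 0.13, limma adjusted p = 0.92) and 0.01 for SPRED2 (95% interval -0.13 to 0.15, limma adjusted p = 0.88).

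The promoters of the 2 Sprouty genes are shown because no other family here held levels so far apart, at chr5:142324228-142324497 for SPRY4 and chr13:80341107-80341376 for SPRY2 (RefSeq, GRCh38.p14, minus strand, capitals for motif matches). The start site that RefSeq uses for SPRY4 lies inside the annotated span of the gene.
SPRY4: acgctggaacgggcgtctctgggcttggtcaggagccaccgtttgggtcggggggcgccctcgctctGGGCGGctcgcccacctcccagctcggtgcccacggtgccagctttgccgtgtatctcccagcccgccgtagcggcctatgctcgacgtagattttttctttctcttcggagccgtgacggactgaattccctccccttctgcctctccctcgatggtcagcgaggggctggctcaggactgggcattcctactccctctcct
SPRY2: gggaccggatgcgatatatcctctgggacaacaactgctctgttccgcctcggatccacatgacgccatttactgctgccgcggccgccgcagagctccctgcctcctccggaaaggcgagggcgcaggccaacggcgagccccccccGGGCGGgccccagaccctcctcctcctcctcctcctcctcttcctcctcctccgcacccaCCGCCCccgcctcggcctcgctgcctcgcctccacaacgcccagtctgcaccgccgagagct
SPRY4 held 1 GC box, with its first base at -183, and SPRY2 held 2, at -102 and -42. Neither window held the letters of the CRE, AP-1, the ETS core or a CIC octamer.

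Of the PEA3 factors, ETV5 rose and ETV4 did not pass the test. ETV5 (chr3:186046314-186110318, minus strand, ENSG00000244405.8) measured 4.89, 5.17 and 4.51 CPM in siAgrin libraries, against 3.03, 2.66 and 2.34 CPM in siControl libraries. The lowest siAgrin library lay well above the highest siControl library. The means were 4.86 ± 0.331 CPM in siAgrin libraries and 2.68 ± 0.344 CPM in siControl libraries (SD, n = 3 each), so that ETV5 rose to 181.5% of the control level. The log2 fold change was 0.76 (95% interval 0.52 to 1.00, standard error 0.103, limma adjusted p = 0.0015), with an exact permutation p of 0.1. It ranged from 0.68 to 0.84 as single libraries were left out, and the limma adjusted p missed 0.01 without siControl 2 (0.0104).

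ETV4 (chr17:43527844-43579620, minus strand, ENSG00000175832.13) measured 29.99, 39.9 and 35.2 CPM in siAgrin libraries, against 25.4, 27.1 and 33.5 CPM in siControl libraries. The groups overlapped, since siAgrin 1 lay below siControl 3. The log2 fold change was 0.29 (95% interval -0.00 to 0.57, limma adjusted p = 0.11). With single libraries left out it ranged from 0.19 without siAgrin 2 to 0.40 without siControl 3, and the limma adjusted p from 0.0254 to 0.273. ETV4 overlaps DHX8 on the opposite strand. DHX8 averaged 87.9 CPM in siAgrin libraries and 90.8 CPM in siControl libraries (log2 fold change -0.05), and as the strand setting of the counting is not given in the sources used here, reads of the 2 genes cannot be told apart where they overlap. Other genes overlap DUSP1, DUSP6, SPRY4, SPRED2 and ETV5, and these were not among the genes listed, so their levels are not known here. One of them, the protein-coding gene DGKG, overlaps ETV5 on the same strand, where no strand setting can tell reads apart.

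Per length of annotated exon the 10 genes fell into tiers. DUSP6, DUSP5 and ETV4 stood at 11.1 ± 3.36, 11.1 ± 2.30 and 9.97 ± 1.41 CPM per kilobase in siAgrin libraries, against 11.0 ± 1.70, 9.49 ± 0.507 and 8.15 ± 1.21 in siControl libraries (SD, n = 3 each). The levels of these 3 did not differ beyond their spread in siAgrin libraries. SPRED2 followed at 5.55 ± 0.342 CPM per kilobase in siAgrin libraries and 5.49 ± 0.243 in siControl libraries. SPRY2, SPRED1 and DUSP4 stood at 3.97 ± 0.401, 3.48 ± 0.132 and 3.47 ± 0.466 CPM per kilobase in siAgrin libraries, against 4.38 ± 0.0666, 3.46 ± 0.140 and 2.20 ± 0.169 in siControl libraries. In siAgrin libraries SPRED1 and DUSP4 lay within the spread of each other, and SPRY2 had the highest mean of the 3. With its rise DUSP4 thus stood at the level of SPRED1 in siAgrin libraries and near that of DUSP1 in siControl libraries. DUSP1 had 2.32 ± 0.467 CPM per kilobase in siAgrin libraries and 2.05 ± 0.227 in siControl libraries. ETV5 had 0.842 ± 0.0574 in siAgrin libraries and 0.464 ± 0.0595 in siControl libraries. SPRY4 was the lowest, at 0.0856 ± 0.0164 in siAgrin libraries and 0.0328 ± 0.00973 in siControl libraries.

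Within each library the ratio of paralogs separated the groups for 3 of 6 pairs with 0.5 CPM added to each level. Library scaling cancels in such a ratio except through the added amount, which weighs most on SPRY4. The log2 ratio of DUSP4 to DUSP6 was -0.43, -0.95 and -0.78 in siAgrin libraries, against -1.22, -1.41 and -1.50 in siControl libraries. DUSP4 thus gained on DUSP6 in all siAgrin libraries, with a mean difference of 0.66 on the log2 scale. The ratio of SPRY2 to SPRY4 was 3.63, 3.62 and 3.68 in siAgrin libraries, against 4.36, 4.46 and 4.24 in siControl libraries (difference -0.71, but -1.22 with 0.1 CPM added and -0.33 with 2 CPM added). The ratio of ETV4 to ETV5 was 2.50, 2.83 and 2.83 in siAgrin libraries, against 2.88, 3.12 and 3.58 in siControl libraries (difference -0.47). This difference was -0.28 without siControl 3 and also -0.28 with 2 CPM added, where the groups overlapped (exact permutation p = 0.3). With 0.5 CPM added the groups did not overlap for any of these 3 pairs and the exact permutation p was 0.1, the smallest possible (0.2 after adjustment over the 6 pairs), so that none passed a threshold of 0.05. The groups overlapped for DUSP1 to DUSP6 (difference 0.17, exact p = 0.3), DUSP5 to DUSP6 (difference 0.22, exact p = 0.3) and SPRED1 to SPRED2 (difference -0.00, exact p = 1.0).

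**Figure D2:**
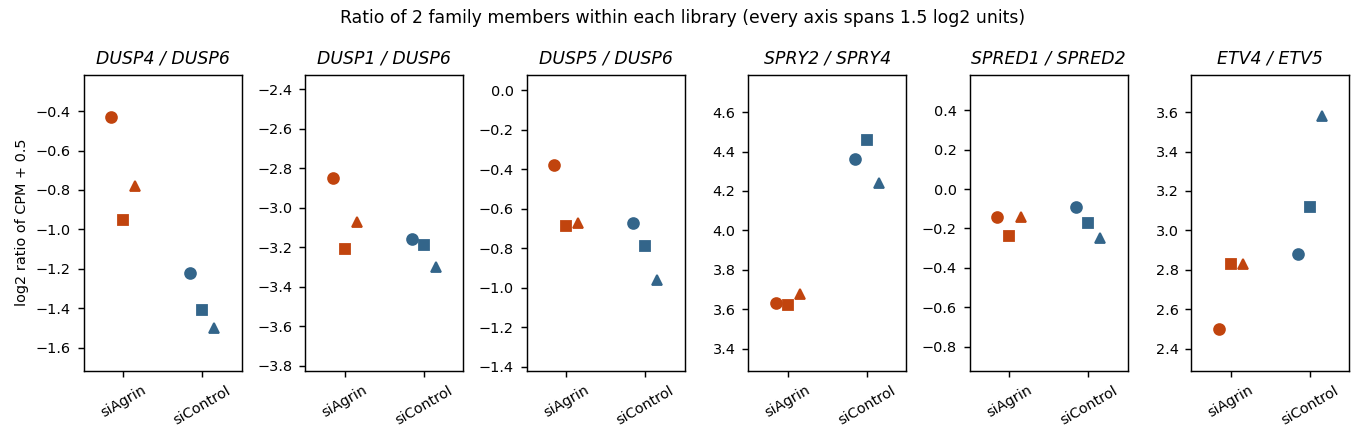
Log2 ratio of CPM + 0.5 of 2 family members within each library, 1 panel per pair, siAgrin at left and siControl at right, with circle, square and triangle for replicates 1, 2 and 3. Every vertical axis spans 1.5 log2 units but starts at its own value. The groups are separate for DUSP4 / DUSP6, SPRY2 / SPRY4 and ETV4 / ETV5 and overlap in the other 3 pairs.

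The genes also shared a pattern between replicates of a group. Within siAgrin, library 1 was the lowest for 9 of the 10 genes (ETV5 was the exception) and library 2 the highest for 9 (SPRED1 was the exception). Over all tested genes siAgrin 1 was the lowest of its group for 40.2% and the highest for 41.0%, and siAgrin 2 the highest for 40.6% and the lowest for 40.6%. These 2 libraries thus differed widely in both directions, with a mean squared difference 42.21 times that expected from counting error. Within siControl, library 3 was the highest for 8 of the 10 genes, all but SPRED1 and ETV5, against 30.6% of all tested genes. The median deviation of the 10 genes from the mean of their group was -0.173, 0.169 and 0.0132 on the log2 scale in siAgrin 1, 2 and 3, and -0.0197, -0.0502 and 0.10 in siControl 1, 2 and 3. Over all tested genes it was within 0.00101 of 0 in every library. Library scaling holds that median near 0, with genes above and below cancelling, so it does not mean that other genes stayed constant.

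The amplitude differed between the genes. The coefficient of variation in siAgrin libraries was 30.2% for DUSP6, 20.8% for DUSP5 and 20.2% for DUSP1, and in siControl libraries it was 15.4%, 5.34% and 11.1% for the same genes. For SPRED1 it was 3.78% in siAgrin libraries and 4.04% in siControl libraries. Summed fibroblast markers were 9.45, 45.7 and 21.6 CPM in siAgrin 1, 2 and 3, and 12.4, 19.5 and 12.2 CPM in siControl 1, 2 and 3. They were therefore lowest and highest in the same siAgrin libraries as most of the 10 genes, though not highest in siControl 3, and 0 of the 5 that were tested were called (limma, also 0 at an unadjusted p below 0.05, in edgeR and in DESeq2). Their part in the pattern was not tested. Without both libraries numbered 2, an alternative chosen after seeing the data, DUSP4 and ETV5 were still called, at log2 fold changes of 0.49 (limma adjusted p = 0.00857) and 0.72 (limma adjusted p = 0.00847).

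**Figure D3:**
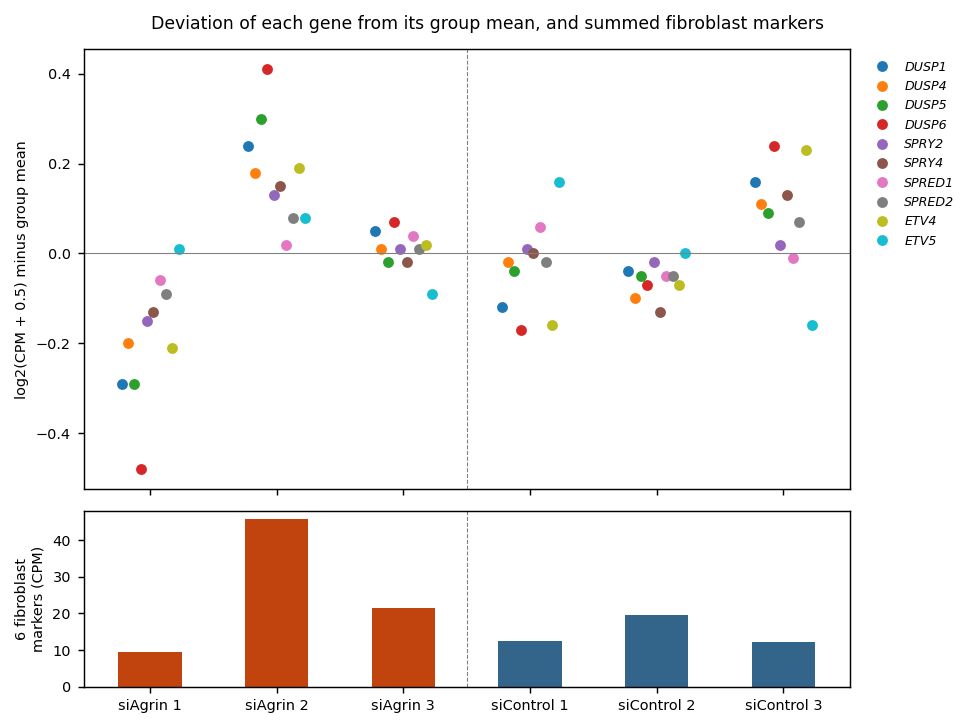
Top, log2(CPM + 0.5) of each of the 10 genes minus the mean of its group, by library (siAgrin 1 to 3 at left, siControl 1 to 3 at right of the dashed line, 1 colour per gene). Bottom, summed CPM of the 6 fibroblast markers as bars from 0. Most points are below 0 in siAgrin 1 and above 0 in siAgrin 2, with DUSP6 the farthest at -0.48 and 0.41.

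The other phosphatases of this family and the other Sprouty and SPRED genes held no call by limma at an adjusted p below 0.01 over the 13050 tested genes, though other settings called some of them. Of the 5 other MAP kinase phosphatases tested, 0 were called, against 18.2% of all tested genes, with a median log2 fold change of 0.19. At an unadjusted p below 0.05 there were 2 higher and 1 lower, edgeR called 0, and DESeq2 called 0 higher and 1 lower. DUSP10, which acts on p38 and JNK, had the highest level, at 48.0 ± 2.598 CPM in siAgrin libraries and 41.3 ± 3.33 CPM in siControl libraries (log2 fold change 0.22, limma adjusted p = 0.041). DUSP8, singled out after its values were seen, stood at 0.0885, 0.589 and 0.239 CPM in siAgrin libraries, against 0.730, 1.13 and 1.009 CPM in siControl libraries (limma adjusted p = 0.019), and it was called lower without siAgrin 2 and without both libraries numbered 2. SPRY1 was the 1 further Sprouty gene tested and averaged 6.03 ± 0.354 CPM in siAgrin libraries and 7.39 ± 0.345 CPM in siControl libraries (log2 fold change -0.28, limma adjusted p = 0.023). It was lower at an unadjusted p below 0.05, and edgeR and DESeq2 called 0 genes of that list. SPRED3, singled out after its values were seen, was too low to be tested, with 4, 8 and 6 reads in siAgrin libraries, against 14, 14 and 14 reads in siControl libraries. With no filter limma called it lower (log2 fold change -0.35, adjusted p = 0.00675), while edgeR without a filter did not (adjusted p = 0.0295).

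The remaining ETS factors moved in both directions, and the third PEA3 factor rose as ETV5 did. Of 16 tested, 2 rose and 4 fell, with a median log2 fold change of -0.11. The share called was 37.5%, against 18.2% of all tested genes. ETV1, the PEA3 factor beside ETV4 and ETV5, measured 4.91, 4.91 and 5.25 CPM in siAgrin libraries, against 3.14, 2.47 and 2.56 CPM in siControl libraries. The groups were well apart (log2 fold change 0.78, standard error 0.099, limma adjusted p = 0.0011), at levels much like those of ETV5 in CPM. The epithelial factor EHF averaged 193 ± 3.06 CPM in siAgrin libraries and 160.2 ± 3.33 CPM in siControl libraries (log2 fold change 0.27). ELF3, an epithelial factor linked to keratinocyte differentiation, fell to 533, 749 and 569 CPM in siAgrin libraries, against 1111, 1349 and 1320 CPM in siControl libraries (log2 fold change -1.04, limma adjusted p = 0.0011). ELK4, a partner of serum response factor, and ETS1 fell by 0.39 and 0.36 on the log2 scale. The counts fell to 0 higher and 1 lower without siAgrin 3, to 1 and 2 without siControl 2 and to 1 and 2 without siControl 3. Among all tested genes the number called fell to 571, 667 and 765 in the same fits.

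**Figure D4:**
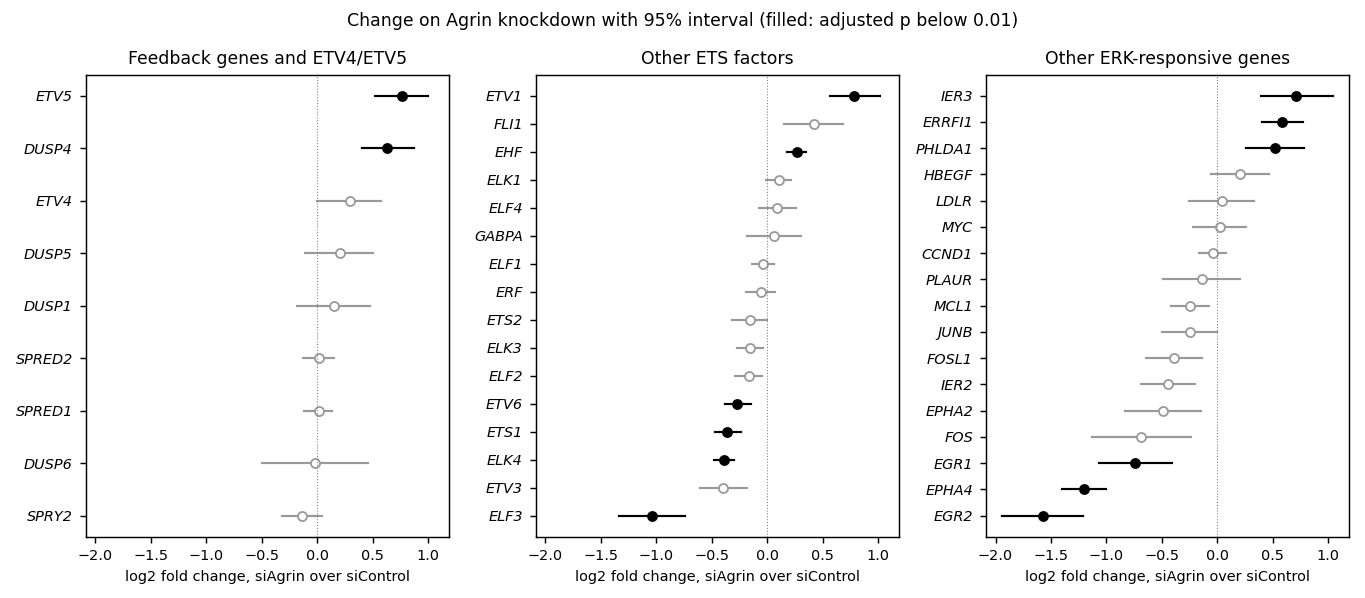
Log2 fold change of siAgrin over siControl on log2(CPM + 0.5) with its 95% interval, for the 9 tested feedback and ETV genes, the 16 other ETS factors and the 17 other ERK-responsive genes. Filled points passed a limma adjusted p of 0.01. In the first panel ETV5 and DUSP4 lie at 0.76 and 0.63, while the other panels hold called genes on both sides of 0.

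Other genes that ERK is known to induce also moved in both directions. Of 17 tested, 3 rose and 3 fell, with a median log2 fold change of -0.25. That is 35.3% called, against 18.2% of all tested genes. Those that rose were ERRFI1, a feedback inhibitor of the EGF receptor (60.9 ± 5.64 CPM in siAgrin libraries and 40.4 ± 3.24 CPM in siControl libraries, log2 fold change 0.58), IER3 (log2 fold change 0.71) and PHLDA1 (log2 fold change 0.52). The immediate early factors EGR1 and EGR2 fell, EGR1 to 64.0 ± 13.1 CPM in siAgrin libraries, against 106 ± 13.2 CPM in siControl libraries, and EGR2 to 0.810 ± 0.247 CPM in siAgrin libraries, against 3.38 ± 0.515 CPM in siControl libraries. The receptor gene EPHA4 fell to 5.06 ± 0.451 CPM in siAgrin libraries, against 12.3 ± 0.816 CPM in siControl libraries. FOS, singled out after its values were seen, averaged 19.5 ± 5.25 CPM in siAgrin libraries and 31.3 ± 5.29 CPM in siControl libraries (limma adjusted p = 0.026). The count of genes called lower was 9 without siAgrin 2 and 8 in DESeq2, where 3362 and 3361 of all tested genes were called. That of genes called higher was 0 without siAgrin 3 or siControl 2 and 1 without siControl 1 or siControl 3. Among all tested genes 571, 667, 1553 and 765 were called in these 4 fits.

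Upstream of ERK, 4 of 19 genes of the cascade rose and 1 fell, with a median log2 fold change of 0.08. Called genes made up 26.3% of this list and 18.2% of all tested genes. The GTPase gene NRAS averaged 98.0 ± 2.10 CPM in siAgrin libraries and 77.6 ± 4.92 CPM in siControl libraries (log2 fold change 0.34). NF1, which encodes neurofibromin, rose by 0.25 on the log2 scale, while the exchange factor gene SOS2 fell by 0.32. The counts were 0 higher and 0 lower without siAgrin 3, siControl 2 or siControl 3, and 0 were called lower without siControl 1. In these fits 571, 667, 765 and 1553 of all tested genes were called.

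Of 13 receptor tyrosine kinases tested, 2 rose and 4 fell, with a median log2 fold change of -0.14. The called share was 46.2%, against 18.2% of all tested genes. EGFR, the main receptor for EGF in keratinocytes, averaged 654 ± 10.0 CPM in siAgrin libraries and 564 ± 5.73 CPM in siControl libraries (log2 fold change 0.21), and FGFR4 rose by 0.69 on the log2 scale at 3.41 ± 0.702 CPM in siAgrin libraries. FGFR3 fell to 84.6 ± 8.83 CPM in siAgrin libraries, against 147 ± 6.51 CPM in siControl libraries (log2 fold change -0.80), FGFR2 fell by 0.45 and the insulin receptor gene INSR by 0.68. The counts were 0 higher and 1 lower without siAgrin 3 and without each of the siControl libraries. Of all tested genes 571 were called without siAgrin 3, and 1553, 667 and 765 without siControl 1, 2 and 3. In the parallel p38, JNK and ERK5 pathways, 1 of 12 genes rose and 0 fell (0 also at an unadjusted p below 0.05, in edgeR and in DESeq2). This was 8.33% called, against 18.2% of all tested genes. The gene that rose was MAPK9, which encodes the kinase JNK2 (74.2 ± 2.603 CPM in siAgrin libraries and 57.8 ± 1.36 CPM in siControl libraries, log2 fold change 0.36, limma adjusted p = 0.00098).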

How the data were processed

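RNA from HaCaT cells was measured in 3 siAgrin and 3 siControl libraries. Single reads of 75 bp had been aligned to hg38 (STAR 2.6.1d), sorted (SAMtools) and counted per gene (HTSeq, GENCODE 29). The authors used edgeR and deposited CPM, the count of each gene scaled to a library size. Each deposited CPM corresponded to a whole read count to within 0.01, which gave the reads back, on implied library sizes of 45175855 to 46566571. TMM factors computed on these values lay between 0.9994 and 1.0012. The implied sizes may therefore already include a normalisation factor and need not equal the sequenced depth. No column was left unused. At this depth counting error is small for all but genes with few reads, such as SPRY4, SPRED3, DUSP8, EGR2 and some fibroblast markers. The sample labels and the methods of the study differ in culture medium, RNA kit and RNA input.

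The comparison was a two-sided limma-trend fit (limma 3.58.1, R 4.3.3) of log2(CPM + 0.5). It covered the 13050 genes that reached 0.5 CPM in 3 or more libraries, with Benjamini-Hochberg adjustment over all of them and a call at an adjusted p below 0.01. Fold changes on this scale understate the change of low genes. Single values were compared by exact two-sided permutation tests over the libraries. Gene positions and exon lengths are from GENCODE 44 (12889 listed genes matched), and promoter sequences are from RefSeq.

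The 10 genes and all gene lists were chosen with earlier results of these data known. Named genes are AGRN, the 10 genes, up to 3 called genes per direction with the smallest p in each list or, where none was called, the gene with the highest level, and the 5 genes most correlated with DUSP6. Any further gene is marked as singled out after its values were seen. Some genes of the lists enter the counts but are not reported here by name.

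Alternatives changed the amount added (0.1 or 2 CPM), the filter (none, or a mean of 5 CPM or more), the scaling (TMM or median ratio), the limma fit (no trend, or robust), the tool (edgeR 4.0.16 or DESeq2 1.42.0 on whole reads) or the threshold (0.05), added a replicate block, or dropped single libraries. The edgeR fit without filter and the fit without both libraries numbered 2 were chosen after seeing the data. In a simulation of 13041 tested genes, 200 of them changed, limma called 50 of the 67 with a 1.5-fold change, 67 of the 67 with a 2-fold change, 66 of the 66 with a 4-fold change and 2 unchanged genes. The simulation gave all genes the same dispersion between libraries and changed only genes with enough reads. Its rates therefore need not hold for genes with few reads, such as SPRY4, or with a wide spread, such as DUSP6.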

Additional observations from a re-analysis of the deposited data

How the results depend on the processing

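DUSP4 and ETV5 were called under TMM and median-ratio scaling, 0.1 and 2 CPM added, both other limma fits, edgeR and DESeq2. The 2 scalings left the deposited values almost as they were, so they could hardly alter a call. Their factors ran from 0.9994 to 1.0012 (TMM) and from 0.9984 to 1.0019 (median ratio). With no filter DUSP4 kept its log2 fold change of 0.63 but not its call (limma adjusted p = 0.0109), and with a mean of at least 5 CPM ETV5 was not tested and 1 of the genes was called. With single libraries left out the number called ranged from 0 to 2, the log2 fold change of DUSP4 from 0.54 to 0.73 and that of ETV5 from 0.68 to 0.84. The difference in the ratio of SPRY2 to SPRY4 was -1.22 with 0.1 CPM added and -0.33 with 2 CPM added, since the levels of SPRY4 are near the amounts added. No result changed direction past its threshold under the alternatives run.

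Among all tested genes 2377 were called, 4802 at an adjusted p below 0.05, 1579 without both libraries numbered 2 and 571 to 3362 with single libraries left out. The replicate numbers share no stated batch or day, so they were not taken as pairs. Deviations of libraries with the same number correlated with r = 0.531, 0.381 and -0.002 for numbers 1, 2 and 3. Between unlike numbers r ran from -0.552 to 0.347. Whether equal numbers share an origin was not tested. With a replicate block 3966 genes were called, DUSP4 (log2 fold change 0.63) and ETV5 (0.76) among them, 9 other ERK-responsive genes were called lower in place of 3, and ETV4 had an adjusted p of 0.0158 (limma). Depth limits SPRY4, which rests on 77 reads in siAgrin libraries and 30 in siControl libraries.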

Other observations

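The 5 tested genes whose log2(CPM + 0.5) followed DUSP6 most closely over the 6 libraries were GNL1 (Pearson r = 0.996), INAFM2 (0.995), EML2 (0.993), PITX1 (0.992) and AP001453.3 (0.988). These values are a description over 6 libraries that share their depth and preparation. Between the groups their limma adjusted p lay between 0.89 and 1.0, and all had siAgrin 1 the lowest and siAgrin 2 the highest of the 6 libraries, as DUSP6 did. Both traits follow from choosing the genes by their correlation with DUSP6 over these same libraries, and are not separate results. EML2 measured 63.0, 88.0 and 79.3 CPM in siAgrin libraries, against 71.4, 76.0 and 82.1 CPM in siControl libraries. Among the genes of the feedback set the same measure was 0.95 for SPRED2, 0.91 for DUSP1, 0.82 for DUSP5, 0.73 for SPRY2, 0.68 for ETV4, 0.38 for SPRED1, 0.32 for DUSP4 and -0.10 for ETV5. In that order they ranked 89, 253, 705, 1149, 1411, 3437, 3920 and 7266 among the tested genes other than DUSP6. Many genes outside the set thus followed DUSP6 more closely than its members did.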
